A study of Arabidopsis thaliana with 6 samples.

Results

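The plastid genome of Arabidopsis thaliana encodes core subunits of the photosynthetic membrane complexes and the large subunit of rubisco, and 33 probe sets of the Affymetrix ATH1 array measure these transcripts. They were chosen as the probe sets that the platform annotation assigns to 1 plastid-genome gene with a symbol starting psa, psb, pet or atp, or to rbcL. They are 33 of 22746 probe sets that are not controls, and 33 of 69 probe sets named for 1 plastid gene. Photosystem I has 5, photosystem II 15, the cytochrome b6f complex 6, the ATP synthase 6 and rubisco 1. All 33 plastid genes with such a symbol in the RefSeq table of assembly TAIR10.1 had a probe set.

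RNA from rosette leaves was hybridised to 3 arrays of pho3 and 3 arrays of wild type. The pho3 plants carry a T-DNA insertion from the Feldmann collection in the background of the accession ws-2, and ws-2 itself was the wild type. Seedlings of both lines spent 10 days on plates containing 1% sucrose before transfer to compost, under a photoperiod of 16 h at 23 °C, and were sampled at growth stage 6.0. No age beyond that stage is given. From background knowledge, pho3 has a defect in SUC2, the transporter that loads sucrose into the phloem. The probe set of SUC2 has no name here, so the lesion could not be checked, and pho3 is represented by 1 insertion line.

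Light reactions run through these complexes in series. Photosystem II splits water and passes electrons through the cytochrome b6f complex to photosystem I, and the proton gradient formed on the way drives the ATP synthase. Rubisco then fixes carbon dioxide. Each complex is a mosaic of plastid-encoded core subunits and nuclear-encoded subunits, and most plastid genes are transcribed together in units by a bacterial-type RNA polymerase. Plastid mRNAs largely lack the poly(A) tails of nuclear mRNAs, and short tails mark them for decay. The labelling protocol primed cDNA with oligo(dT), so these signals report what that priming captured. Whether that capture differed between the lines was not tested.

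The 6 arrays did not fall cleanly into their labelled groups. Arrays were compared by the scaled median absolute deviation of their log2 differences over 13983 probe sets. Between the array labelled wild-type replicate 1 and pho3 replicates 1, 2 and 3 it was 0.31, 0.31 and 0.27. The same array gave 0.48 and 0.47 when set beside wild-type replicates 2 and 3. For the array labelled pho3 replicate 3 it was 0.43 and 0.44 to the other pho3 arrays, and 0.35 and 0.37 to wild-type replicates 2 and 3. The labels set the direction of each difference here, and results are also given without these arrays. The leaf markers LHCB4.1 and RCA, 2 of 7 with a name, summed to between 4925 and 5727 in pho3 and between 5467 and 6622 in wild type. Both had lower means in pho3, with log2 differences of -0.25 and -0.23, or -0.11 and -0.07 after quantile normalization. The 3 named root markers of 4 did not pass the filter, with sums of 52.7 to 58.2 in pho3 and 47.3 to 87.2 in wild type. The guard cell marker FMA, 1 of 3, read 40.9 to 50.2 in pho3 and 48.6 to 63.7 in wild type, and no phloem, xylem, flower or seed marker had a name. The part of other cell types in the results was not tested.

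All 33 plastid-encoded photosynthesis genes had a lower mean log2 signal in pho3 than in wild type in the values as deposited. After quantile normalization, which gives every array the same distribution of signals, 24 of the 33 did. A lower mean was found for 50.2% of all 13983 probe sets as deposited and 52.5% after quantile normalization. The median log2 difference of the 33 was -0.27, or -0.22 after quantile normalization, beside -0.00 and -0.02 over all probe sets tested. Without wild-type replicate 1 the median as deposited was -0.41. The differences were between -0.90 (psbN) and -0.10 (psbC and atpE). In whole leaves, fewer plastids or fewer mesophyll cells and less of a transcript per plastid cannot be told apart.

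None of these differences passed limma's test over all genes, where 0 of the 33 and 0% of all probe sets were called lower or higher, at a Benjamini-Hochberg adjusted p under 0.05. The lowest adjusted p among the 33 was 0.375 and the highest 0.608. At an unadjusted p under 0.05 limma called 7 of the 33 lower, which is 21.2% of them, against 4.85% of all probe sets tested. It called 0 higher, against 5.77%. The groups did not overlap, with every pho3 array below every wild-type array, for 8 of the 33, or 24.2%, against 5.81% of all probe sets. In the other direction there were 0, against 5.31% of all. Those 8 were psaA, psbD, psbH, psbM, psbN, petA, petL and atpF. After quantile normalization the count was 4, which were psaI, psbD, psbN and atpF, or 12.1% against 6.14% of all, and 0 were higher, against 5.28%. On that scale 4 of the 33, or 12.1%, had an unadjusted limma p under 0.05 and were lower, against 5.08% of all. With each array centred on its median, 5 did not overlap, or 15.2%, against 5.28% of all. In the values as deposited the count was 29 without wild-type replicate 1, or 87.9%, against 26.9% of all probe sets. Without pho3 replicate 3 it was 22, or 66.7%, against 24.7%.

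**Figure D1:**
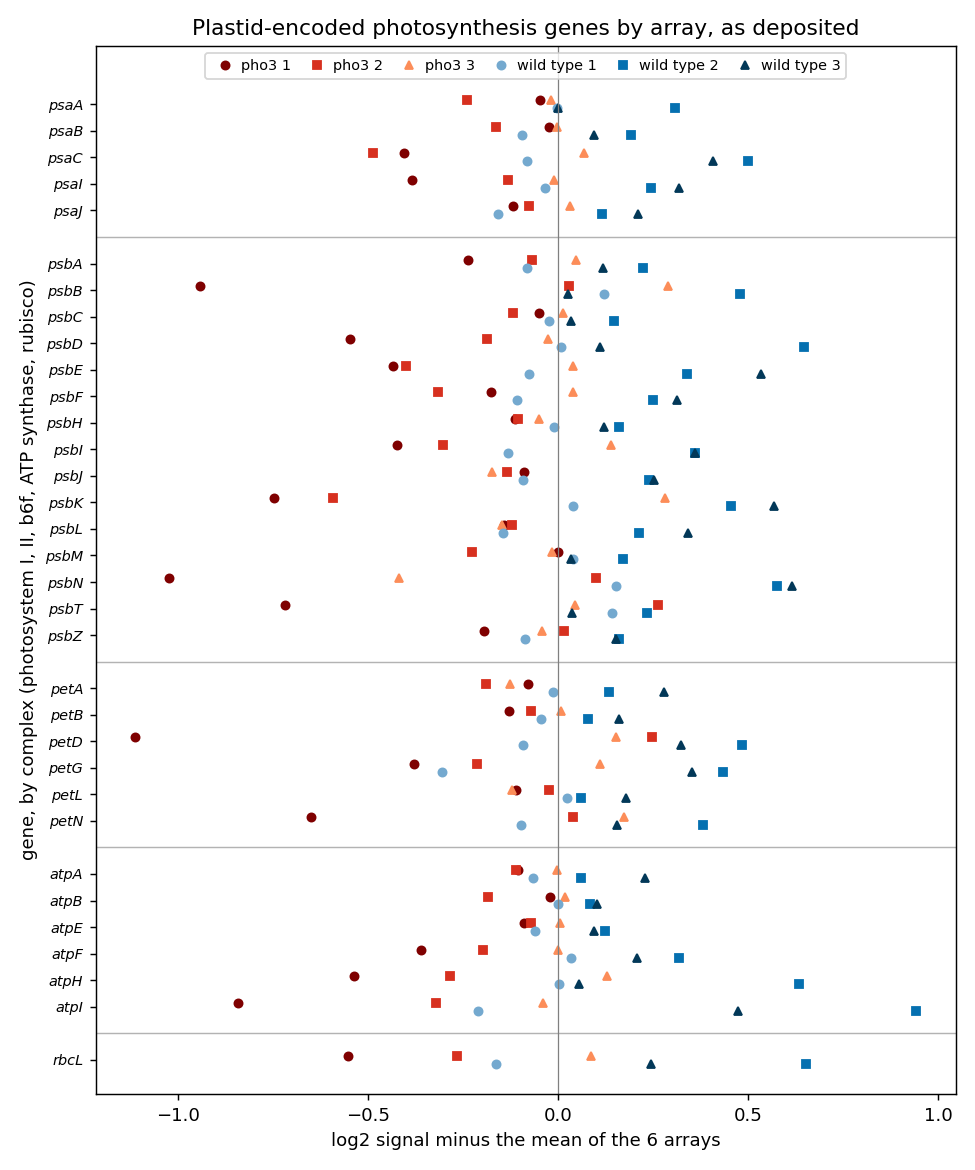
Log2 signal of each of the 33 genes on each array, as deposited, minus the mean of the 6 arrays (x axis, log2 units), in rows grouped by complex; warm colours are pho3 arrays and blue colours wild-type arrays. Wild-type replicates 2 and 3 hold the highest value for 32 of the 33 genes, while pho3 replicate 3 and wild-type replicate 1 lie in between for most.

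Pho3 replicate 1 gave the lowest of the 6 signals for 20 genes, pho3 replicate 2 for 9, pho3 replicate 3 for 3 and wild-type replicate 1 for 1. Wild-type replicate 2 gave the highest for 18, wild-type replicate 3 for 14 and pho3 replicate 2 for 1. Pho3 replicate 3 read above the array labelled wild-type replicate 1 for 22 of the 33, or 16 of 33 after quantile normalization. The median deviation from the 6-array mean over the 33 genes was -0.24, -0.13 and 0.01 on pho3 replicates 1, 2 and 3, and -0.06, 0.24 and 0.21 on wild-type replicates 1, 2 and 3. Quantile normalization narrowed this to -0.10, -0.04 and 0.00 in pho3, against 0.00, 0.18 and 0.09 in wild type. The 33 genes together made up 1.27%, 1.30% and 1.43% of the summed signal on the pho3 arrays, against 1.39%, 1.63% and 1.59% on the wild-type arrays.

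Of the measures of RNA quality, 1 moved with that order of arrays. The actin control ratio of 3-prime to 5-prime signal, which rises as transcripts are shortened, was 4.75, 5.24 and 3.46 in pho3, against 4.23, 2.18 and 2.26 in wild type. Pho3 replicates 1 and 2, with the lowest plastid medians, had the highest ratios. Wild-type replicates 2 and 3 had the highest medians and the lowest ratios. Another 5 control ratios, from a second actin set, GAPDH and ubiquitin, lay between 1.08 and 2.11 in pho3 and between 1.16 and 1.95 in wild type. These 5 did not follow that order, and none was lowest on wild-type replicate 2 or 3. Both ubiquitin ratios were highest on those 2 arrays, at 1.78 and 1.80 for 1 set and 1.38 and 1.40 for the other. The part of RNA quality in the plastid differences was not tested.

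All 5 genes of photosystem I had lower means in pho3 as deposited, with a median log2 difference of -0.20 and values from -0.55 to -0.11. After quantile normalization 3 of 5 did, with a median of -0.09. The median deviation of the complex was -0.12, -0.16 and -0.00 in pho3, against -0.08, 0.24 and 0.21 in wild type. Quantile normalization changed these to 0.02, -0.04 and 0.00 in pho3, against -0.03, 0.13 and 0.05 in wild type. The median difference as deposited was nearest to 0 of the 4 complexes with all 6 arrays, but this order depended on the arrays. It was -0.10 without wild-type replicate 2 and -0.13 without pho3 replicate 2. Without wild-type replicate 3 it was -0.25, farther from 0 than the other complexes (-0.23 to -0.21), and without pho3 replicate 1 it was -0.23, against -0.13 for cytochrome b6f.

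The gene psaC, for the subunit that carries the terminal iron-sulphur clusters and hands electrons to ferredoxin, had signals of 432, 409 and 600.2 on pho3 replicates 1 to 3, against 541, 809 and 760.0 on wild-type replicates 1 to 3. It read lower on pho3 replicates 1 and 2 than on any wild-type array, and on pho3 replicate 3 it lay above wild-type replicate 1. Its log2 difference was -0.55 (SE 0.22, limma adjusted p = 0.375), and -0.52 after quantile normalization. The small subunit gene psaI had 801, 953 and 1038 in pho3, against 1021, 1237 and 1304 in wild type, with a difference of -0.35, and -0.23 after quantile normalization. Only pho3 replicate 3 reached the wild-type range, by a narrow margin over wild-type replicate 1.

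The reaction-centre core genes psaA and psaB, which bind the special pair of chlorophylls, differed less. psaA had 1286, 1125 and 1312 in pho3, against 1326, 1645 and 1329 in wild type. Its groups did not overlap, yet pho3 replicate 3 and wild-type replicates 1 and 3 stood close together and the difference was -0.20 (95% interval -0.52 to 0.11), or -0.088 after quantile normalization. psaB had 2505, 2274 and 2544 in pho3, against 2387, 2909 and 2721 in wild type, with overlapping groups and a difference of -0.13 that turned to 0.033 after quantile normalization. The small subunit gene psaJ had 1732, 1782 and 1921 in pho3, against 1686, 2036 and 2174 in wild type. Wild-type replicate 1 gave its lowest signal of all, and its difference of -0.11 turned to 0.051 after quantile normalization.

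Photosystem II showed the widest range. All 15 genes had lower means in pho3, or 12 of 15 after quantile normalization, with differences from -0.90 to -0.10 and a median of -0.27, or -0.22 after quantile normalization. The median was -0.41 without wild-type replicate 1. The median deviation of the complex was -0.24, -0.12 and 0.01 on the pho3 arrays, against -0.03, 0.24 and 0.15 on the wild-type arrays. After quantile normalization it was -0.10, -0.05 and 0.01 on the pho3 arrays, against 0.02, 0.18 and 0.04 on the wild-type arrays.

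psbN, whose product is an assembly factor and not a stable subunit, had the largest difference of the 33. Its signals were 65.3, 142 and 99.3 on pho3 replicates 1 to 3, against 148, 198 and 204 on wild-type replicates 1 to 3. The groups did not overlap, although pho3 replicate 2 came within a few units of wild-type replicate 1, and the pho3 arrays differed among themselves more than 2-fold. The mean was 102 ± 38.7 in pho3, against 183 ± 30.7 in wild type (SD, n = 3 each), and the difference of mean log2 signals was -0.90 (SE 0.30, limma adjusted p = 0.375). psbK, for a small core subunit, came next in photosystem II with 755, 840.2 and 1539 in pho3, against 1301, 1736 and 1877 in wild type. Pho3 replicates 1 and 2 lay far below all other arrays, whereas pho3 replicate 3 read above wild-type replicate 1. Its difference was -0.71 (SE 0.29), or -0.58 after quantile normalization.

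The reaction centre of photosystem II is a pair of proteins, D1 from psbA and D2 from psbD. psbD had signals of 435, 559 and 626 on pho3 replicates 1 to 3, against 640.3, 997 and 688 on wild-type replicates 1 to 3. No pho3 array reached the wild-type range, and wild-type replicate 2 was far above every other array. The difference was -0.51 (95% interval -1.03 to 0.02) or -0.46 after quantile normalization, and it was -0.31 without wild-type replicate 2. psbA, which encodes the rapidly replaced D1, had 1791, 2016 and 2182 in pho3, against 1997, 2468 and 2292 in wild type. Its groups overlapped, and the difference of -0.17 became 0.0031 after quantile normalization.

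Proteins of the inner antenna are encoded by psbB and psbC. psbB, for CP47, read 341, 669 and 800.4 in pho3, against 712, 914 and 668 in wild type. It was low on pho3 replicate 1 alone, with pho3 replicates 2 and 3 within the wild-type range, and its difference of -0.42 became -0.05 without that array. psbC, for CP43, read 1579.9, 1506 and 1652 in pho3, against 1608, 1812 and 1675 in wild type, a difference of -0.10, or 0.038 after quantile normalization.

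The cytochrome b559 genes psbE and psbF both read lowest on pho3 replicates 1 and 2. psbE had 1020.5, 1047 and 1417 in pho3, against 1309, 1746 and 2000.0 in wild type and a difference of -0.53 (95% interval -1.01 to -0.05). psbF had 1519, 1379 and 1763 in pho3, against 1591, 2041 and 2133 in wild type and a difference of -0.30. In both, pho3 replicate 3 stood above wild-type replicate 1 and the groups overlapped. After quantile normalization the differences were -0.40 and -0.15.

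The small-subunit genes psbH and psbM had groups that did not overlap but small differences. psbH had 1179.7, 1186 and 1231 in pho3, against 1266, 1426 and 1386 in wild type, a difference of -0.18 with the pho3 arrays close together, or -0.056 after quantile normalization. psbM had 2407, 2058 and 2384 in pho3, against 2473, 2710.2 and 2467 in wild type, a difference of -0.16 that became 0.0019 after quantile normalization. Of the other small-subunit genes, psbL had nearly the same signal in all 3 pho3 arrays and wild-type replicate 1, at 448, 454 and 446 in pho3, against 446, 573 and 626 in wild type. psbJ showed the same pattern, with 1047, 1016 and 989 in pho3, against 1046, 1317 and 1329 in wild type. For both, only wild-type replicates 2 and 3 stood apart. psbI differed by -0.39, psbT by -0.27 and psbZ by -0.15, each with overlapping groups, and by -0.29, -0.24 and -0.017 after quantile normalization.

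In the cytochrome b6f complex all 6 genes had lower means in pho3, or 5 of 6 once quantile normalized. The median log2 difference was -0.28, or -0.22 on the quantile-normalized scale. That median rested largely on pho3 replicate 1, and was -0.13 without it and -0.19 without wild-type replicate 2. The median deviation was -0.25, -0.05 and 0.06 in pho3, against -0.07, 0.26 and 0.23 in wild type. It was -0.23, 0.03 and 0.06 in pho3, against -0.05, 0.22 and 0.16 in wild type after quantile normalization.

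petA, for cytochrome f, was the clearest of the 6, with signals of 1815, 1684 and 1757 on pho3 replicates 1 to 3, against 1901, 2105 and 2327 on wild-type replicates 1 to 3. The groups did not overlap and the pho3 arrays lay close together, with a difference of -0.26 (95% interval -0.52 to -0.01, limma adjusted p = 0.375), or -0.10 after quantile normalization. petD, for subunit IV, had the largest difference, -0.48 (SE 0.38), from 34.2, 87.7 and 82.2 in pho3, against 69.3, 103 and 92.5 in wild type. Only pho3 replicate 1 was outside the wild-type range, and the difference was -0.04 without it. petN, for a small subunit, did the same, with 84.0, 136 and 149 in pho3, against 123, 172 and 147 in wild type, a difference of -0.29 and -0.04 without pho3 replicate 1.

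petB, for cytochrome b6, had 2058, 2143 and 2267 in pho3, against 2185, 2380.3 and 2515 in wild type, and its difference of -0.13 turned to 0.013 after quantile normalization. Of the small-subunit genes, petG had 126, 141 and 176 in pho3, against 132, 220.4 and 208 in wild type, where wild-type replicate 1 read among the pho3 arrays and the difference was -0.32, or -0.55 without that array. petL had 777, 825 and 771 in pho3, against 853, 874 and 949.5 in wild type, with groups that did not overlap and a difference of -0.17, or -0.096 after quantile normalization.

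All 6 ATP synthase genes had lower means in pho3 as deposited, and the size of the difference went with the part of the enzyme that they encode, which was not tested. Their median log2 difference was -0.26, or -0.13 after quantile normalization, where 3 of 6 were lower. The median deviation was -0.23, -0.19 and 0.00 in pho3, against -0.03, 0.22 and 0.15 in wild type. After quantile normalization it was -0.15, -0.05 and 0.00 in pho3, against 0.02, 0.09 and 0.02 in wild type. The genes of the membrane part, atpI, atpH and atpF, differed by -0.80, -0.46 and -0.37. The genes of the catalytic head, atpA, atpB and atpE for the alpha, beta and epsilon subunits, differed by -0.15, -0.12 and -0.10. The head genes were also the brighter ones. Mean signals over the 6 arrays were 2207, 3085 and 2718 for them, and 96.2, 1085 and 998 for atpI, atpH and atpF. Part of the enzyme and brightness cannot be told apart here.

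atpI, for the proton channel subunit, had signals of 49.5, 71.0 and 86.3 on pho3 replicates 1 to 3, against 76.6, 171 and 123 on wild-type replicates 1 to 3. Pho3 replicate 3 overlapped wild-type replicate 1, while wild-type replicates 2 and 3 were higher. Its 95% interval was -1.59 to -0.02 and its difference after quantile normalization -0.84. atpH, for the subunit of the rotating ring, had 723, 863 and 1148 in pho3, against 1052, 1630.5 and 1090.1 in wild type. It was low on pho3 replicates 1 and 2 and high on wild-type replicate 2, with the other arrays alike, and differed by -0.35 after quantile normalization. atpF, for a stalk subunit, had 768, 859 and 985 in pho3, against 1009, 1228 and 1137 in wild type. Its groups did not overlap as deposited or after quantile normalization, where the difference was -0.26 (limma adjusted p = 0.375 as deposited).

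Head subunits were bright and nearly level. atpA had 2045, 2035 and 2196 in pho3, against 2099.9, 2291 and 2575 in wild type. atpB had 3035, 2711 and 3115 in pho3, against 3079, 3264 and 3307 in wild type, and atpE had 2552, 2581 and 2721 in pho3, against 2602, 2954 and 2899 in wild type. All 3 overlapped between groups, and all 3 turned sign with quantile normalization, to 0.0099, 0.019 and 0.050.

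rbcL, for the large subunit of rubisco, had signals of 370.1, 452 and 577 on pho3 replicates 1 to 3, against 485, 854 and 643 on wild-type replicates 1 to 3. It was lowest on pho3 replicate 1 and highest on wild-type replicate 2, and pho3 replicate 3 lay above wild-type replicate 1. Its mean was 466 ± 104 in pho3, against 661 ± 185 in wild type (SD, n = 3 each), with a log2 difference of -0.49 (95% interval -1.10 to 0.12, limma adjusted p = 0.375). After quantile normalization the difference was -0.45. Leaving out 1 array moved it between -0.69, without wild-type replicate 1, and -0.28, without wild-type replicate 2.

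**Figure D2:**
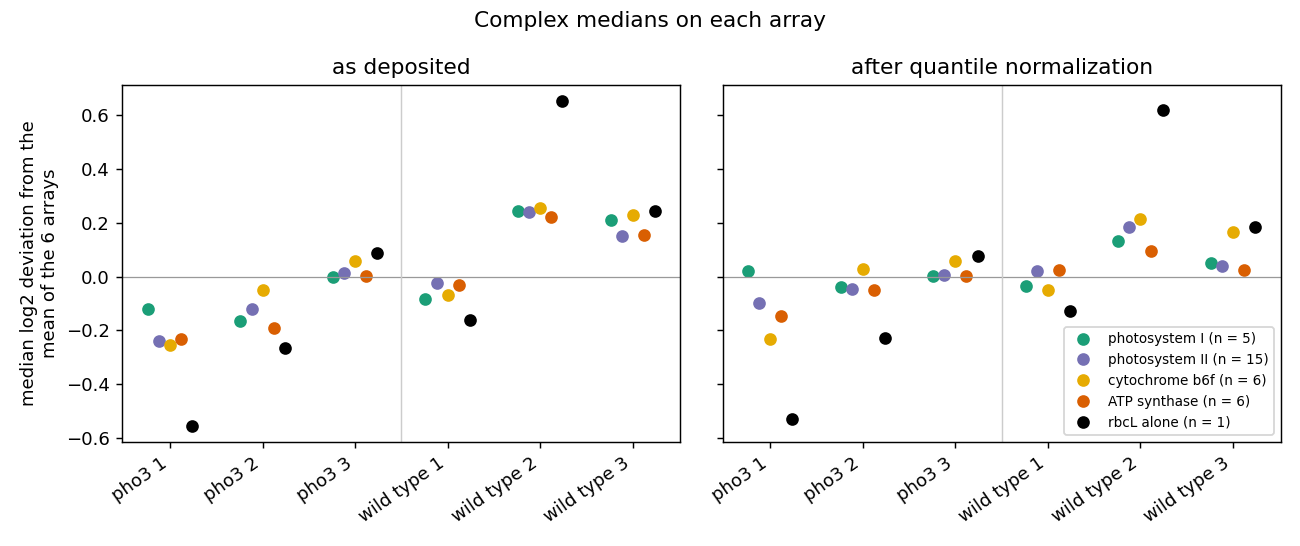
Median log2 deviation from the 6-array mean (y axis) of photosystem I, photosystem II, cytochrome b6f, ATP synthase and rbcL on each array (x axis), as deposited on the left and after quantile normalization on the right; each point is 1 complex on 1 array. The 4 complexes lie close together on most arrays, while rbcL stands apart, farthest on pho3 replicate 1 and wild-type replicate 2. Wild-type replicate 2 is highest for each, and the spread between arrays is smaller for the 4 complexes after quantile normalization.

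Between complexes, the medians as deposited ran from -0.28 to -0.20, a smaller span than the differences within photosystem II or within the ATP synthase. Medians vary less than single genes in any case, so the smaller span does not show that the complexes were alike. The pooled SD of a complex median between replicate arrays of the same line was 0.14 for photosystem I, 0.13 for photosystem II, 0.17 for cytochrome b6f and 0.13 for the ATP synthase. The complexes were measured on the same 6 arrays and share most of that spread, so these SDs do not bound a difference between complexes. After quantile normalization they ran from -0.22 to -0.09, with SDs of 0.06, 0.07, 0.15 and 0.06. Photosystem I and the ATP synthase moved closer to 0 than photosystem II and cytochrome b6f did. No test of a difference between complexes was made.

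Brightness went with the size of the difference. The signal of a probe set depends on its probes as well as on the transcript, so it is not a scale of RNA amount across genes. The 16 probe sets brighter than the median of 1124 had a median difference of -0.16, and the other 17 had -0.39. After quantile normalization the medians were 0.00 and -0.35. The 9 genes that turned sign, psaB, psaJ, psbA, psbC, psbM, petB, atpA, atpB and atpE, each had a mean signal of at least 1639. All 17 dimmer genes and 7 of the 16 brighter ones had lower means in pho3 after quantile normalization as well. Over the 33 genes the correlation of mean log2 signal with the log2 difference was 0.64 as deposited (Pearson) and 0.78 after quantile normalization. It was -0.09 and -0.05 over all 13983 probe sets. The genes share the same 6 arrays, so the correlation is a description.

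The bright end of the arrays differed between groups in the same sense. The 99th percentile of signal was 1320.5, 1314 and 1440.1 on the pho3 arrays, against 1359, 1516 and 1566 on the wild-type arrays. The 90th percentile was nearly level, at 300.3, 305 and 301 in pho3, against 299.9, 292 and 298 in wild type. Quantile normalization removes such a difference at the bright end, where 20 of the 33 genes had a mean signal of 1000 or more. How much of it came from leaf transcripts and how much from hybridisation or scanning was not tested.

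**Figure D3:**
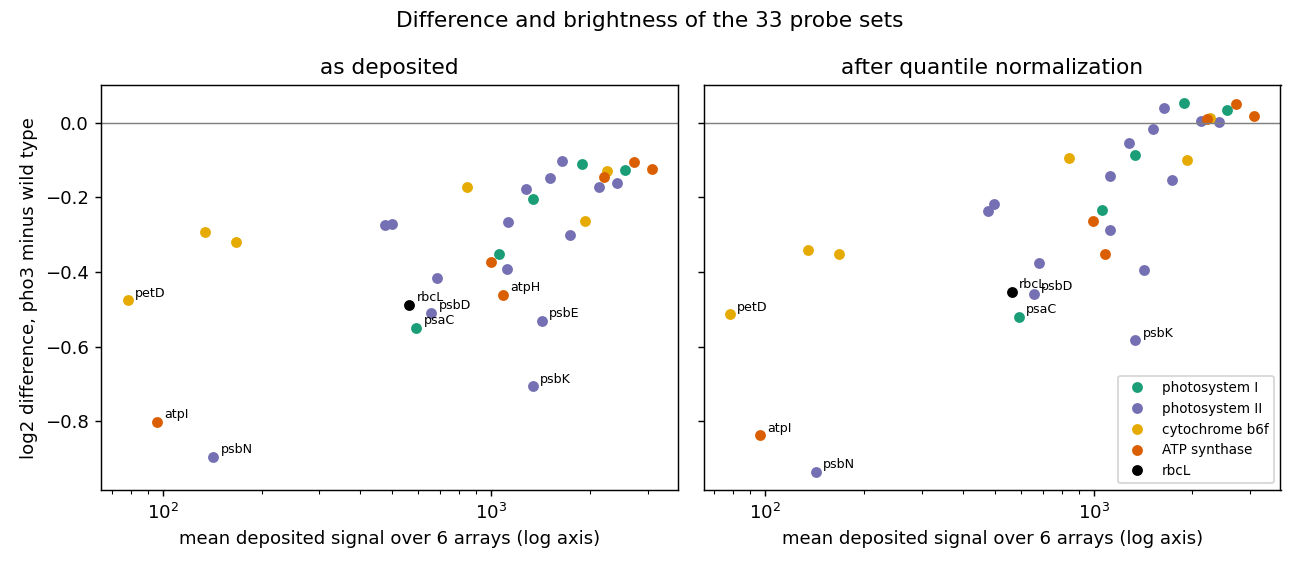
Log2 difference, pho3 minus wild type (y axis), of each of the 33 genes against its mean deposited signal over 6 arrays (x axis, log scale), as deposited on the left and after quantile normalization on the right, coloured by complex. As deposited all points lie below 0 and the brightest lie nearest to it; after quantile normalization 9 bright genes lie just above 0, while psbN, atpI, psbK, psaC, petD, psbD and rbcL stay between -0.94 and -0.45.

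Most plastid genes are cotranscribed, and the differences varied within transcription units. Differences between neighbouring genes were not tested. In the unit rps2-atpI-atpH-atpF-atpA the differences were -0.35, -0.80, -0.46, -0.37 and -0.15, in gene order. rps2, for a ribosomal protein, was named as a neighbour after its value was seen, and so was rps14 of the psaA unit. In psbE-psbF-psbL-psbJ they were -0.53, -0.30, -0.27 and -0.27, so that the first gene differed most. In psbD-psbC-psbZ the first gene again stood apart, with -0.51, -0.10 and -0.15, although the reading frames of psbD and psbC overlap. psaA, psaB and rps14 had -0.20, -0.13 and -0.44, and psbK and psbI had -0.71 and -0.39. In the overlapping pair atpB and atpE the values were close, at -0.12 and -0.10. Of petL, petG and psaJ, which share a unit, the middle gene differed most, with -0.17, -0.32 and -0.11. atpI, psbD, petG and rps14 were also the dimmest of their units, with mean signals of 96.2, 657, 167 and 40.2. psbE and psbK, at 1423 and 1341, were not. The parts of gene order and brightness in these differences were not tested.

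The psbB unit separated on a single array. Along psbB-psbT-psbH-petB-petD the differences were -0.42, -0.27, -0.18, -0.13 and -0.48. psbB, psbT and petD were far down on pho3 replicate 1, with log2 deviations of -0.94, -0.72 and -1.11 from their 6-array means. psbH and petB, from the same unit, deviated by -0.11 and -0.13 there. psbT had 282, 558 and 479 in pho3, against 512, 546 and 477 in wild type, and its difference was 0.02 without pho3 replicate 1. psbN, which is read from the opposite strand between psbT and psbH, deviated by -1.02, and petN, outside the unit, by -0.65. psbH and petB, with the smaller deviations, were also among the brighter probe sets, with mean signals of 1279 and 2258. The cause was not tested.

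**Figure D4:**
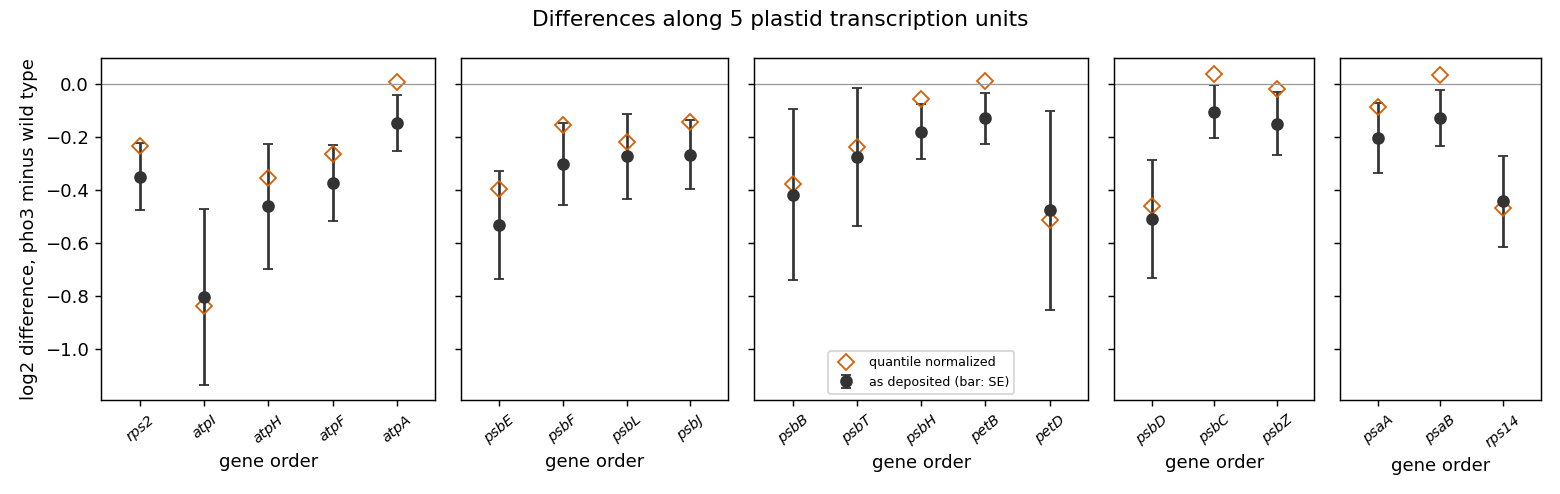
Log2 difference, pho3 minus wild type (y axis), for genes of 5 plastid transcription units in gene order (x axis); filled points are values as deposited with SE bars from limma (3 arrays per group), open diamonds are quantile-normalized values. psbE, psbD and atpI, near the starts of their units, have larger differences than the genes after them. In the psbB and psaA units the last gene, petD or rps14, has the largest instead. atpI, psbD, petD and rps14 are also the dimmest genes of their units, while psbE is not. Bars of neighbouring genes overlap in most places.

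Other plastid genes had lower means in pho3 as well. Of 36 further named plastid probe sets 34 passed the filter, with ndhF and rpoB too dim. Means were lower for all 34 as deposited and for 30 once quantile normalized. The median log2 difference was -0.42, or -0.37 on the quantile-normalized scale. With all 6 arrays limma called 0 of them. It called 22 with array weights, 1 without wild-type replicate 1 and 26 with that array and pho3 replicate 3 left out. Of all 13983 probe sets these fits called 2026, 117 and 2305 lower, and 2237, 644 and 2547 higher. The fits were shaped by the arrays that stood apart, so these counts are no separate evidence of a difference. The 9 tested genes of the NDH complex, which returns electrons from photosystem I to the plastoquinone pool, had a median of -0.52. ndhH differed by -1.03, ndhK by -0.95 and ndhJ by -0.82, against -0.12 for ndhC. The 15 ribosomal protein genes had a median of -0.38, led by rpl36 at -1.37, rps16 at -1.02 and rpl20 at -0.61, against -0.07 for rpl32. rpl36 had 106, 107 and 234 in pho3, against 222, 489 and 420.3 in wild type. The RNA polymerase genes rpoC1, rpoA and rpoC2 differed by -0.53, -0.40 and -0.23. Of 7 other plastid genes, ycf3 and ycf4, for assembly factors of photosystem I, differed by -0.89 and -0.44, accD for fatty acid synthesis by -0.63, and ccsA, for a factor that attaches haem to c-type cytochromes, by -0.14.

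Nuclear genes for subunits and partners of the same complexes could be followed for 8 of 40 listed. Their median log2 difference was -0.22, with 7 of 8 lower in pho3, or -0.06 with 6 of 8 lower after quantile normalization. Limma called 0 with all 6 arrays, and 6 of the 8 both with array weights and without the same 2 arrays. Those fits called 2026 and 2305 of all 13983 probe sets lower, and 2237 and 2547 higher. Here too the counts are no separate evidence of a difference. PSAN of photosystem I differed by -0.33 and PSAE1 by -0.09, PSBY and PSBW of photosystem II by -0.32 and -0.22, PETM of the b6f complex by -0.29 and rubisco activase RCA by -0.23. The ATP synthase gamma subunit gene ATPC1 had 1973, 1886 and 2442 in pho3, against 2144, 2648 and 2539 in wild type, a difference of -0.22. Its dim paralog ATPC2 went the other way, with 42.9, 43.6 and 33.91 in pho3, against 33.89, 29.6 and 31.6 in wild type and a difference of 0.33. Its groups did not overlap only by the slight gap between pho3 replicate 3 and wild-type replicate 1. Of all probe sets 5.31% did not overlap in that direction. After quantile normalization PSAE1 turned to 0.073. Of 22 nuclear genes for plastid transcription only RPOTMP had a name, at 25.6, 11.2 and 7.15 in pho3, against 16.3, 8.51 and 7.08 in wild type, which did not pass the filter. None of 15 genes for plastid RNA stability and translation had a name.

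**Figure D5:**
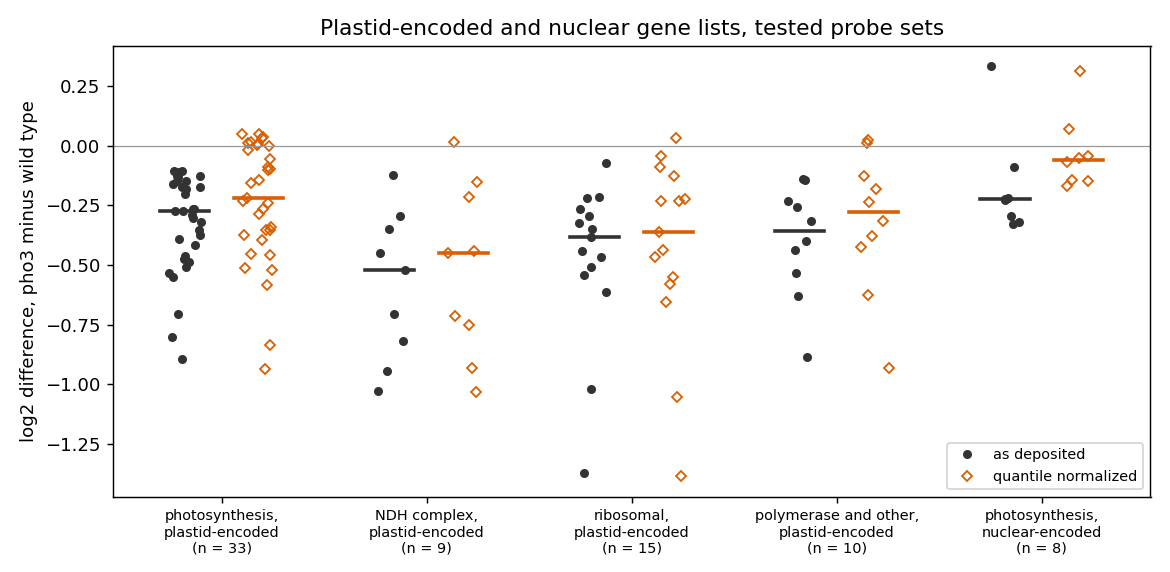
Log2 difference, pho3 minus wild type (y axis), of each tested gene of the plastid-encoded photosynthesis genes (n = 33), NDH genes (9), ribosomal protein genes (15), polymerase and other genes (10), and nuclear genes of the photosynthesis complexes (8); filled points are as deposited, open diamonds quantile normalized, bars are medians. As deposited every plastid-encoded gene lies below 0; after quantile normalization 9 photosynthesis genes and 4 of the other plastid genes lie above it.

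Among the 33 genes, calls appeared only in fits that gave less weight to the arrays that stood apart. With limma's array weights, which gave wild-type replicate 1 a weight of 0.367 and pho3 replicate 3 one of 0.443, 14 of the 33 were called lower, or 42.4%, against 14.5% of all probe sets. Without both arrays 15 were called lower, or 45.5%, against 16.5% of all. All 14 were among the 15. The weights come from the fit to the same labels, and the arrays were left out for how their values looked, so these counts are no separate evidence of a difference. Without wild-type replicate 1 alone 0 of 33 passed in either direction. Of all 13983 probe sets 117, or 0.837%, passed as lower and 644 as higher. At an unadjusted limma p under 0.05, 15 of the 33 were lower, or 45.5%, against 14.6% of all. Quantile normalization of those 5 arrays also gave 0 calls among the 33, while 110 of all probe sets, or 0.787%, were called lower and 545 higher.

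In the fit without both arrays, the 15 genes came from every complex. They were psaC and psaI, psbD, psbE, psbF, psbI, psbJ, psbK and psbL, petA and petG, atpF, atpH and atpI, and rbcL. psbK differed by -1.18 on the log2 scale (limma adjusted p = 0.00158), psbE by -0.85 (adjusted p = 0.00339), psaC by -0.90 (adjusted p = 0.00353), atpI by -1.29 (adjusted p = 0.0117) and rbcL by -0.86 (adjusted p = 0.0165). psbN, the largest difference over all 6 arrays, did not pass there, at -1.06 (limma adjusted p = 0.063). When the 4 arrays were quantile normalized, 7 genes were called lower, or 21.2% against 17.8% of all probe sets. They were psaC, psbE, psbI, psbK, petG, atpI and rbcL, and a share that near the background is not a result about these genes.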

How the data were processed

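Values as deposited are linear intensities, 1 for each probe set on an array. The authors made these intensities with MAS5, per the submitters' processing notes, which give no version; with 2% trimmed from both ends, all 6 arrays averaged 100.0. Detection calls were not used here. Groups follow the titles. Nothing in the labels says whether replicates were separate plants, and p-values reflect the spread among these samples alone, possibly a technical one. The 3 arrays in a group limit the precision.

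Control probe sets (64) were dropped. Among the other 22746, 13983 with a signal at or above the 40th percentile of their array (26.2 to 28.4) on at least 3 arrays were tested. All 33 genes passed on every array, with signals from 34.2 to 3307. The log2 of each signal, without a pseudocount, was tested, pho3 minus wild type, with limma 3.58.1 in R 4.3.3 (lmFit, eBayes with a trend), two-sided, adjusted over all probe sets tested. Figures were drawn with matplotlib 3.10.9 and summaries made with pandas 2.3.3 (python 3.11.15). The scripts were tested on simulated data. Medians over genes carry no p.

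Names come from the platform annotation. Of the 22746 probe sets 13513 had 1 gene, of which 13436 matched the RefSeq table, 503 had several genes and 8730 are unnamed here. Coordinates are omitted, since the sources used here do not name the annotation's genome build. Whether probes also match plastid-derived DNA elsewhere in the genome was not tested. The genes, lists and tests were chosen with earlier results of these data known. Values by array are given for the genes that differed most and least in each complex, those whose groups did not overlap or whose sign turned with quantile normalization, psbA and rbcL, and a few others of the 33 as pattern examples. Of the other lists the 3 largest differences and the most opposed are named. Alternatives covered the scaling (quantile, median), 16 as a pseudocount, the filter, the variance prior, array weights, blocking on replicate number and leaving out arrays.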

Additional observations from a re-analysis of the deposited data

How the results depend on the processing

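Over median centring, a pseudocount of 16, 3 other filters and 2 other variance priors, all 33 genes kept a lower mean in pho3 and 0 were called. Quantile normalization turned 9 of them, to 0.033 (psaB), 0.051 (psaJ), 0.0031 (psbA), 0.038 (psbC), 0.0019 (psbM), 0.013 (petB), 0.0099 (atpA), 0.019 (atpB) and 0.050 (atpE). It moved the ATP synthase median to -0.13 and the count of genes whose groups did not overlap to 4, and median centring moved that count to 5. Array weights called 14 genes lower. With wild-type replicate 1 and pho3 replicate 3 both left out, 15 were called and 31 did not overlap. The 31 are 93.9% of the genes, against 35.7% of all probe sets. The medians were then -0.41 for photosystem II, -0.46 for cytochrome b6f and -0.40 for the ATP synthase. Leaving out 1 array in turn gave 0 calls each time and a count of 8 to 29 genes whose groups did not overlap. The 29, or 87.9%, came without wild-type replicate 1, against 26.9% of all probe sets. For the smallest counts that share was not computed. The medians were -0.41 to -0.21 for all 33. They were -0.41 to -0.22 for photosystem II, -0.26 to -0.10 for photosystem I, -0.38 to -0.13 for cytochrome b6f and -0.33 to -0.21 for the ATP synthase. psbT ranged from -0.47 to 0.016 over these fits and was above 0 without pho3 replicate 1. Quantile normalization together with leaving out arrays was added after the data had been seen. Without wild-type replicate 1 it gave 16 genes whose groups did not overlap as lower and 2 as higher. Without both arrays it gave 17 and 2, and 7 were called lower, or 21.2%, against 17.8% of all probe sets. The share of all probe sets whose groups did not overlap was not computed for these fits. Those overlap counts are therefore no result about these genes.

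With the replicate number as a block 0 genes were called, the lowest adjusted p among the 33 being 0.192 (limma, atpI). The deviations of same-numbered arrays from their group means correlated at 0.39, -0.27 and 0.43 over all probe sets. Pho3 replicate 2 correlated most with wild-type replicate 1, at 0.52, and pho3 replicate 3 with wild-type replicate 2, at 0.48. Deviations within a group sum to 0, and the arrays that stood apart weigh on them. These correlations therefore do not settle whether the numbers pair the arrays. The cause of the deviations was not tested.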
